A study of Saccharomyces cerevisiae EC1118 with 12 samples.

Results

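The 36 genes described here encode the factors that build the mitochondrial respiratory chain and ATP synthase of yeast without being part of the finished enzymes. They were taken by gene symbol from a list of such factors, whatever their direction of change, and all 36 were found among the 5449 genes tested, each with 1 probe set. The samples are 12 RNA preparations from chemostats of Saccharomyces cerevisiae EC1118, a commercial wine yeast grown on a synthetic grape must made limiting for nitrogen, and were hybridised to Affymetrix expression arrays. The cultures were sparged with nitrogen (anaerobic) or with gas holding 1%, 5% or 20% oxygen, with 3 arrays in each of the 4 groups. All groups share the strain and the medium. The sample titles carry the numbers 0, 1.2, 2.7 and 5 without a unit. The condition text gives 0.8, 4 and 11 micromolar dissolved oxygen for the oxygenated groups. If the title numbers are also micromolar dissolved oxygen, the labels conflict, so the groups are named by their gas. No label tells if the 3 arrays of a gas are independent cultures; the p-values reflect the variation among arrays alone, and that variation could be technical.

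Cytochrome bc1 (complex III), cytochrome c oxidase (complex IV) and ATP synthase are mosaics of subunits encoded in the nucleus and subunits encoded in mitochondrial DNA. Translation activators made in the cytosol bind single mitochondrial mRNAs and let them be read, while assembly factors insert heme and copper, fold the new chains and join them to their partners. Electrons pass through complex III to complex IV, which hands them to oxygen, and many of their nuclear subunit genes are known to be less expressed in yeast without oxygen or heme.

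The oxygen labels were checked against HEM13. This gene, which encodes an oxygen-requiring step of heme synthesis and is induced in hypoxia, had group means of 11.1, 8.62, 7.65 and 6.51 (log2) at 0, 1%, 5% and 20% oxygen. A list of 10 hypoxic genes was less uniform. Of these, 2, 6 and 7 were called lower at 1%, 5% and 20% oxygen, beside 11.2%, 11.0% and 4.64% of all genes. None was called higher, but 2 of the 10 had differences above 0 at 1%. Of 16 haploid mating genes, markers of a cell type other than a diploid wine strain, 1 was called higher and 1 lower at 1% oxygen, 3 higher and 1 lower at 5%, and 2 higher at 20%. These are 12.5%, 25% and 12.5% of the list, beside 16.4%, 16.3% and 7.91% of all genes. Of all genes, 5.27%, 5.32% and 3.27% were called higher. At 20% oxygen the differences in the mating list ran from -0.98 to 3.95 (log2). There the arrays did not overlap with the anaerobic ones for 7 mating genes that were higher (18.3% of all genes) and 0 that were lower (15.9%). The part of the mating genes in the results was not tested. Arrays of a group correlated with the mean of their partners at 0.940 to 0.992, and the lowest value belonged to 1% oxygen array 3. Anaerobic array 1 stood above the anaerobic mean by a median of 0.96 over 19 general stress genes and by 0.43 over the structural subunits, but by 0.02 over the 36 assembly and translation factors.

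At 20% oxygen, 1 of the 36 factors rose against the anaerobic cultures and none fell, while 8 of 32 nuclear genes for the structural subunits of the same 3 enzymes rose and none fell (limma, Benjamini-Hochberg adjusted p under 0.05 over all genes). Across all genes, 7.91% were called in this comparison, 3.27% higher and 4.64% lower. At 5% oxygen 2 factors and 8 subunits rose, with 16.3% of all genes called, 5.32% higher and 11.0% lower. At 1% oxygen 1 factor rose, 1 fell, and 7 subunits rose, with 16.4% of all genes called, 5.27% higher and 11.2% lower. These comparisons share the anaerobic arrays. The counts rest on single arrays. Without anaerobic array 2 no factor was called at any oxygen level, and the subunits called were 0 at 1% oxygen, 1 at 5% and 1 at 20%, while 36, 400 and 153 of all genes were called. Without 1% oxygen array 3, 15 subunits were called at 5% and 14 at 20%. The factors called higher were 2.78% of the 36 at 20% oxygen and 5.56% at 5%, near the shares of all genes called higher. The median difference of the factors from the anaerobic group was 0.31, 0.48 and 0.16 (log2) at 1%, 5% and 20% oxygen, against 0.60, 0.67 and 0.60 for the subunits and 0.00, 0.07 and 0.05 for all genes. On this scale 1 unit is 2-fold. The difference was above 0 for 25 of 36 factors at 1% oxygen (50.0% of all genes), for 29 at 5% (55.9%) and for 24 at 20% (54.4%). The 95% intervals of the 35 factors not called at 20% oxygen lay within 1 of no change for 16 of them, and reached as high as 1.49 and as low as -1.78, so changes of about 2-fold were within the error for the rest.

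**Figure D1:**
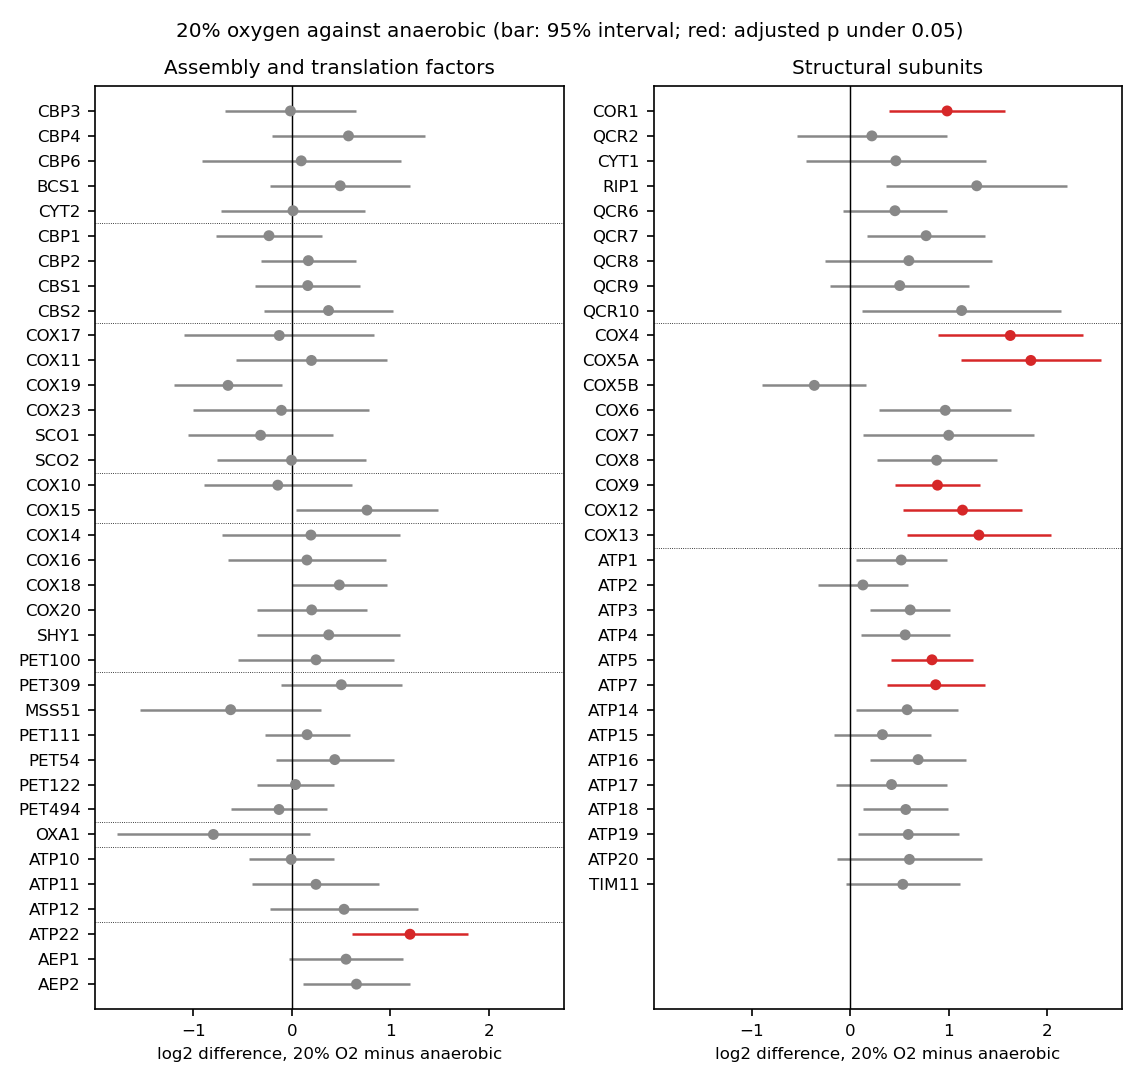
Difference between 20% oxygen and anaerobic cultures (log2, horizontal axis) for the 36 assembly and translation factors (left) and the 32 structural subunits (right), one gene per row with its 95% interval, in groups by role; red marks an adjusted p under 0.05. On the left only ATP22 is red, and the points lie on either side of 0 with a median of 0.16; on the right 8 genes are red, and 31 of 32 points lie above 0.

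ATP22 was the member called at every oxygen level. It encodes a mitochondrial protein needed to translate the mRNA of subunit 6 of ATP synthase, the subunit through which protons pass. Its level was 6.02, 5.67 and 5.77 in the anaerobic arrays, 6.84, 6.60 and 7.64 at 1% oxygen, 6.83, 7.27 and 6.83 at 5% oxygen, and 6.71, 7.12 and 7.25 at 20% oxygen (log2). Each of the 9 oxygenated arrays was above each of the anaerobic ones, and the 3 oxygenated groups overlapped with each other. The difference from the anaerobic group was 1.21 ± 0.27 at 1% oxygen, 1.16 ± 0.27 at 5% and 1.20 ± 0.27 at 20% (log2 ± standard error), with limma adjusted p-values of 0.018, 0.0142 and 0.0196. The difference between 20% and 5% oxygen was 0.05 ± 0.27, with a 95% interval of -0.54 to 0.64. ATP22 was also the member called by the F test for any difference between the 4 groups (adjusted p = 0.0259), which called 10.1% of all genes. The F test called no member when anaerobic array 1, 2 or 3 or 5% oxygen array 2 was left out, nor with the replicate number as a block. With each array left out in turn, the rise was 0.90 to 1.42 at 1%, 1.01 to 1.26 at 5% and 1.09 to 1.36 at 20%, but the call did not survive every omission. Without anaerobic array 2 it was lost at all 3 oxygen levels (adjusted p = 0.0855, 0.0636 and 0.086 at 1%, 5% and 20%), and likewise without anaerobic array 3 (0.0606, 0.0517 and 0.0767). It was also lost at 20% without array 2 or array 3 of that group (0.0733 and 0.0621), and at 5% without array 2 of that group (0.0672). Without 1% oxygen array 3 and anaerobic array 1 together, the rise at 1% was 1.00 (adjusted p = 0.0574), and the call at 1% was also lost when only the 1% and anaerobic groups were fitted (adjusted p = 0.0521).

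The other factors of ATP synthase did not pass the test. AEP2 and AEP1 act on the mRNA of subunit 9, which forms the rotor ring. AEP2 stood at 6.70, 6.29 and 6.65 in the anaerobic arrays, 7.17, 6.87 and 7.57 at 1% oxygen, 7.46, 7.29 and 7.13 at 5%, and 6.97, 7.68 and 6.97 at 20%. As for ATP22, no oxygenated array lay in the anaerobic range, but the differences of 0.66 ± 0.25 at 1%, 0.75 ± 0.25 at 5% and 0.66 ± 0.25 at 20% had limma adjusted p-values of 0.0848, 0.0603 and 0.123. At 5% oxygen AEP2 was called without 1% oxygen array 3 (adjusted p = 0.0326) or 20% oxygen array 2 (0.0389). AEP1 differed by 0.55 ± 0.26 at 20% oxygen and 0.08 ± 0.26 at 1%. ATP12 and ATP11 are the chaperones of the alpha and beta subunits of the F1 head. ATP12 stood at 7.86, 8.02 and 8.07 in the anaerobic arrays, 8.19, 8.52 and 9.06 at 1%, 9.01, 8.25 and 9.39 at 5%, and 8.32, 9.18 and 8.03 at 20%. Its largest difference was 0.90 ± 0.35 at 5% oxygen (limma adjusted p = 0.0945), where the arrays did not overlap with the anaerobic ones. ATP11 differed by 0.25 ± 0.30 at 20% oxygen and by -0.33 ± 0.30 at 1%. ATP10, which helps subunit 6 to assemble, was read at 0.44 to 1.17 in all 12 arrays, near the bottom of the scale, so a response could not be read from it.

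In the main fit of all 12 arrays, none of the 9 complex III factors passed the test in any comparison with the anaerobic group. That fit used all genes on the deposited values. With other settings of the same arrays, CBP1 and CBS1 were called at 1% oxygen, as described below. The factors that act on the mRNA of cytochrome b, the mitochondrially encoded subunit, spread in both directions. CBP1, which stabilises that mRNA, was 5.73, 5.32 and 5.24 at 1% oxygen, against 6.18, 6.42 and 6.02 in the anaerobic arrays. The groups did not overlap, and the difference was -0.78 ± 0.25 (limma adjusted p = 0.051). It was called without 1% oxygen array 1, 20% oxygen array 1 or 20% oxygen array 3 (adjusted p = 0.0435, 0.0381 and 0.0378). At 20% oxygen CBP1 stood at 5.54, 5.97 and 6.42, in and below the anaerobic range. CBS1 and CBS2 are translation activators of the same mRNA. CBS1 differed by 0.67 ± 0.24 at 1% oxygen (limma adjusted p = 0.0765, and 0.0325 without 1% oxygen array 2) and by 0.16 ± 0.24 at 20%. CBS2 stood at 6.28, 5.72 and 6.03 in the anaerobic arrays, 6.31, 5.84 and 6.85 at 1%, 6.94, 6.73 and 6.67 at 5%, and 5.84, 6.91 and 6.41 at 20%. It was above the anaerobic range in all arrays at 5% oxygen (0.77 ± 0.30, limma adjusted p = 0.101) and overlapped with it at 1% and 20%. CBP2, a splicing factor of the cytochrome b transcript, ranged from 5.28 to 6.12 over the 12 arrays and was among the lowest 25% of genes by mean level, called dim below.

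Among the proteins that assemble complex III, CBP3 and CBP6 form a pair that binds the mitochondrial ribosome and receives the new cytochrome b, and CBP4 joins them on it. CBP4 had the largest difference of these at 20% oxygen, with 7.45, 7.81 and 7.62 against 7.49, 7.06 and 6.58 in the anaerobic arrays. The groups overlapped (0.58 ± 0.36, limma adjusted p = 0.351). CBP3 and CBP6, which act together, differed by -0.01 ± 0.31 and 0.10 ± 0.47 at 20% oxygen. BCS1, the ATPase that moves the Rieske iron-sulfur protein across the inner membrane, was above the anaerobic arrays in all 9 oxygenated arrays. Its anaerobic levels were 7.31, 7.29 and 7.35, and its oxygenated levels 7.42, 7.88 and 7.84 at 1%, 8.37, 7.44 and 8.77 at 5%, and 7.42, 8.35 and 7.65 at 20%. The largest of its differences was 0.88 ± 0.33 at 5% oxygen (limma adjusted p = 0.084), and it was called there without 5% oxygen array 2 (1.26, adjusted p = 0.027). CYT2, the lyase that attaches heme to cytochrome c1, differed by 0.01 ± 0.34 at 20% oxygen.

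The copper route into complex IV contained no gene that rose. COX17 is the copper chaperone of the space between the mitochondrial membranes, SCO1 and COX11 pass the metal to the Cox2 and Cox1 subunits, SCO2 is a close relative of SCO1, and COX19 and COX23 are small proteins related to COX17. At 20% oxygen 5 of these 6 genes had differences below 0, with a median of -0.12 (log2), while the complex IV subunits had a median of 1.00. At 5% oxygen 5 of the 6 were above 0, with a median of 0.48, and at 1% oxygen 4 of 6 were, with a median of 0.14, so the 6 genes had no shared direction across the oxygen levels. COX17 stood at 8.88, 9.96 and 8.13 at 20% oxygen, against 9.16, 9.01 and 9.18 in the anaerobic arrays. The 20% arrays thus lay above and below a narrow anaerobic range (-0.13 ± 0.44, limma adjusted p = 0.898). At 1% oxygen all COX17 arrays were above that range (0.54 ± 0.44, limma adjusted p = 0.399). COX11 had its largest difference at 5% oxygen (0.85 ± 0.35, limma adjusted p = 0.119), and its arrays at 1% and 5% were all above the anaerobic ones. When only the 5% and anaerobic groups were fitted, COX11 was called higher at 5% (limma adjusted p = 0.0226). SCO1 and SCO2 differed by -0.32 ± 0.34 and -0.00 ± 0.35 at 20% oxygen, with 95% intervals from -1.06 to 0.42 and from -0.76 to 0.75. COX23, a dim gene, differed by -0.11 ± 0.41.

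COX19 was the member that fell. It stood at 6.14, 5.49 and 5.72 in the anaerobic arrays, 5.13, 4.85 and 4.60 at 1% oxygen, 5.55, 5.06 and 5.19 at 5%, and 5.52, 5.13 and 4.76 at 20%. All arrays at 1% oxygen were below all anaerobic ones, while those at 5% and 20% overlapped with them. The difference at 1% was -0.93 ± 0.25 (limma adjusted p = 0.0318), and those at 5% and 20% were -0.51 ± 0.25 and -0.65 ± 0.25 (limma adjusted p = 0.178 and 0.13). COX19 is dim. Its call at 1% was lost when anaerobic array 1, 2 or 3 was left out (adjusted p = 0.0986, 0.0763 and 0.0767), when 1% oxygen array 3 was (0.0926), and with quantile scaling of the arrays (-0.68, adjusted p = 0.0927). Without 1% oxygen array 3 and anaerobic array 1 together, the difference was -0.62 (adjusted p = 0.214).

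Heme A, the cofactor found only in complex IV among these enzymes, is made from heme B by COX10 and then COX15, whose step uses oxygen in a hydroxylation. COX15 stood at 9.85, 9.39 and 9.12 in the anaerobic arrays, 9.62, 10.07 and 9.90 at 1% oxygen, 10.68, 9.88 and 10.71 at 5%, and 9.50, 10.69 and 10.45 at 20%. Its lowest array at 5% was just above its highest anaerobic array, and 20% oxygen array 1 lay in the anaerobic range. The differences were 0.41 ± 0.33 at 1% oxygen, 0.97 ± 0.33 at 5% and 0.76 ± 0.33 at 20%, with limma adjusted p-values of 0.389, 0.0654 and 0.174. Leaving out 20% oxygen array 1 gave a difference of 1.12 at 20% (adjusted p = 0.0447) and an adjusted p of 0.0316 at 5%. COX10 differed by -0.14 ± 0.34 at 20% oxygen and by 0.39 ± 0.34 at 5%, so neither enzyme of the pair was called in the fit of all 12 arrays.

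**Figure D2:**
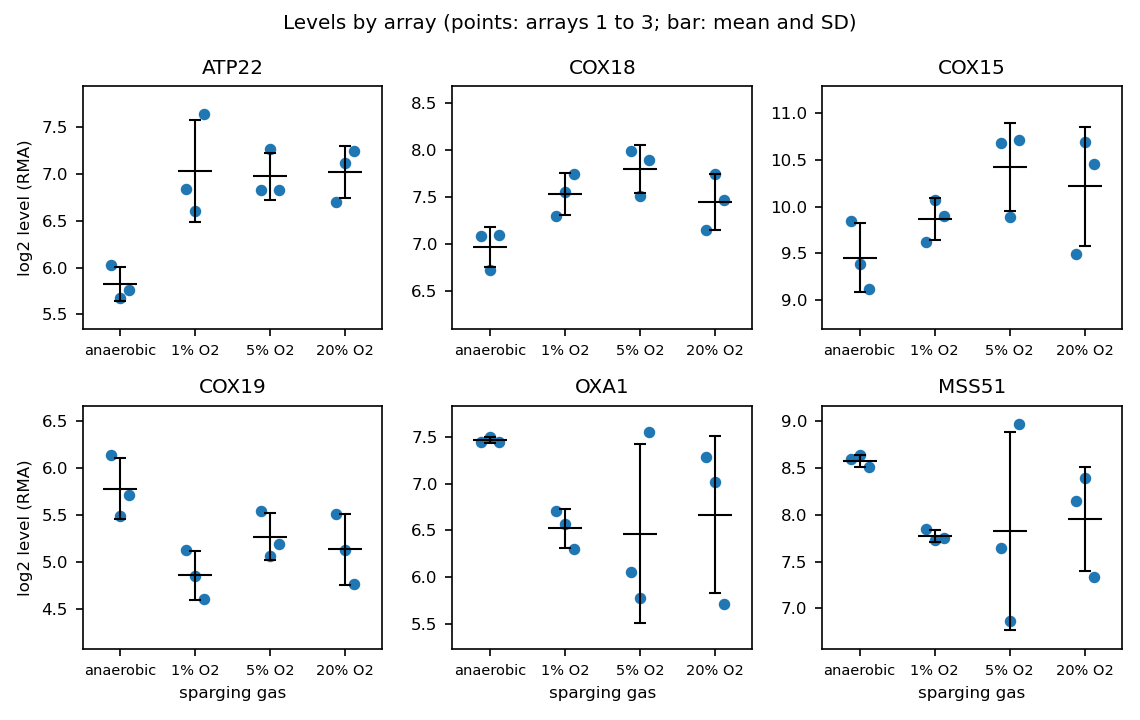
Log2 level (vertical axis) of 6 genes in each array of the 4 groups (horizontal axis, low to high oxygen); points are arrays 1 to 3 from left to right, and the bar is the mean with the SD. ATP22 is above its anaerobic arrays in all 9 oxygenated arrays, COX19 is below them in all 3 arrays at 1% oxygen, and OXA1 and MSS51 have 3 close anaerobic values and widely spread values at 5% and 20% oxygen.

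Of the 6 other complex IV assembly factors, all had differences above 0 at 20% oxygen (0.15 to 0.48, log2) and at 5% oxygen (0.32 to 0.87), and COX18 was the one called. Without 20% oxygen array 2, COX14 (-0.19), COX16 (-0.02) and PET100 (-0.03) were below 0 at 20%. COX18 moves the tail of the Cox2 subunit across the inner membrane. Its level was 7.08, 6.72 and 7.10 in the anaerobic arrays, 7.30, 7.56 and 7.74 at 1% oxygen, 7.99, 7.51 and 7.89 at 5%, and 7.14, 7.74 and 7.46 at 20%. All 9 oxygenated arrays were above the anaerobic ones, at 20% by a small margin between the nearest arrays. COX18 rose at 5% oxygen by 0.83 ± 0.22 (limma adjusted p = 0.025) and differed by 0.57 ± 0.22 at 1% and 0.48 ± 0.22 at 20% (0.0923 and 0.197). That call was lost when anaerobic array 2 (adjusted p = 0.114), anaerobic array 3 (0.0574), 5% oxygen array 1 (0.094) or 5% oxygen array 3 (0.0628) was left out.

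COX20 is a chaperone of Cox2, SHY1 is the yeast relative of human SURF1 and acts on Cox1, and PET100 and COX16 join later in assembly. COX20 was above the anaerobic arrays in all arrays at 1% oxygen, with 8.68, 8.66 and 9.34 against 8.50, 7.71 and 8.21 (0.75 ± 0.26, limma adjusted p = 0.0632). SHY1 was above them at 5% oxygen, with 7.28, 6.54 and 7.06 against 6.23, 5.91 and 6.13 (0.87 ± 0.33, limma adjusted p = 0.0947). COX14, which holds newly made Cox1 together with MSS51, was 8.14, 9.26 and 8.05 at 20% oxygen, against 8.29, 8.26 and 8.31 in the anaerobic arrays (0.19 ± 0.41). The pattern of COX14, with close anaerobic values and 1 high array among 3 at 20% oxygen, recurs in many members and is taken up below.

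None of the 6 translation activators of the mitochondrial cytochrome oxidase mRNAs was called in the fit of all groups on the deposited values. MSS51 activates translation of COX1 mRNA and then holds the new Cox1. It stood at 8.59, 8.64 and 8.51 in the anaerobic arrays, 7.85, 7.73 and 7.75 at 1% oxygen, 7.64, 6.87 and 8.96 at 5%, and 8.14, 8.39 and 7.33 at 20%. All arrays at 1% and 20% were below the anaerobic ones, and 5% oxygen array 3 was above them. The differences of -0.80 ± 0.42 at 1%, -0.75 ± 0.42 at 5% and -0.62 ± 0.42 at 20% were not called (limma adjusted p = 0.194, 0.241 and 0.411). PET309, which acts on the same mRNA, was in the other direction, with 5.78, 6.58 and 5.93 at 20% oxygen against 5.65, 5.65 and 5.48 in the anaerobic arrays (0.50 ± 0.28, limma adjusted p = 0.299). It was called at 5% oxygen with quantile scaling (0.90, adjusted p = 0.0414) and with a gene length trend removed (1.00, adjusted p = 0.04), and when only the 5% and anaerobic groups were fitted (adjusted p = 0.0367), but not in the fit of all groups on the deposited values (0.73 ± 0.28, adjusted p = 0.096).

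PET111, the activator of COX2 mRNA, differed by 0.16 ± 0.20 at 20% oxygen, with a 95% interval of -0.28 to 0.59. PET54, PET122 and PET494 act together on COX3 mRNA. PET54 differed by 0.58 ± 0.28 at 1% oxygen (limma adjusted p = 0.154) and was called there without 1% oxygen array 2 (0.86, adjusted p = 0.0419). At 20% oxygen PET54 differed by 0.44 ± 0.28 and PET494 by -0.13 ± 0.22, and PET122 was read at 1.59 to 2.04 in all arrays, near the bottom of the scale, so a response could not be read from it. OXA1, the insertase that places Cox2 and other mitochondrial products into the inner membrane, had the lowest difference of all members at each oxygen level. It stood at 7.45, 7.50 and 7.45 in the anaerobic arrays, 6.71, 6.56 and 6.30 at 1% oxygen, 6.05, 5.78 and 7.55 at 5%, and 7.28, 7.01 and 5.71 at 20%. As in MSS51, all arrays at 1% and 20% were below the anaerobic ones and 5% oxygen array 3 was above them. The differences were -0.94 ± 0.45 at 1% oxygen and -0.80 ± 0.45 at 20% (limma adjusted p = 0.155 and 0.304), and the 95% interval at 5% was -1.99 to -0.02 (adjusted p = 0.145). Without 5% oxygen array 3, OXA1 was called lower at 5% (-1.55, adjusted p = 0.0205) and so was MSS51 (-1.32, adjusted p = 0.0178). When only the 1% and anaerobic groups were fitted, both OXA1 (adjusted p = 0.0376) and MSS51 (adjusted p = 0.038) were called lower at 1% oxygen.

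**Figure D3:**
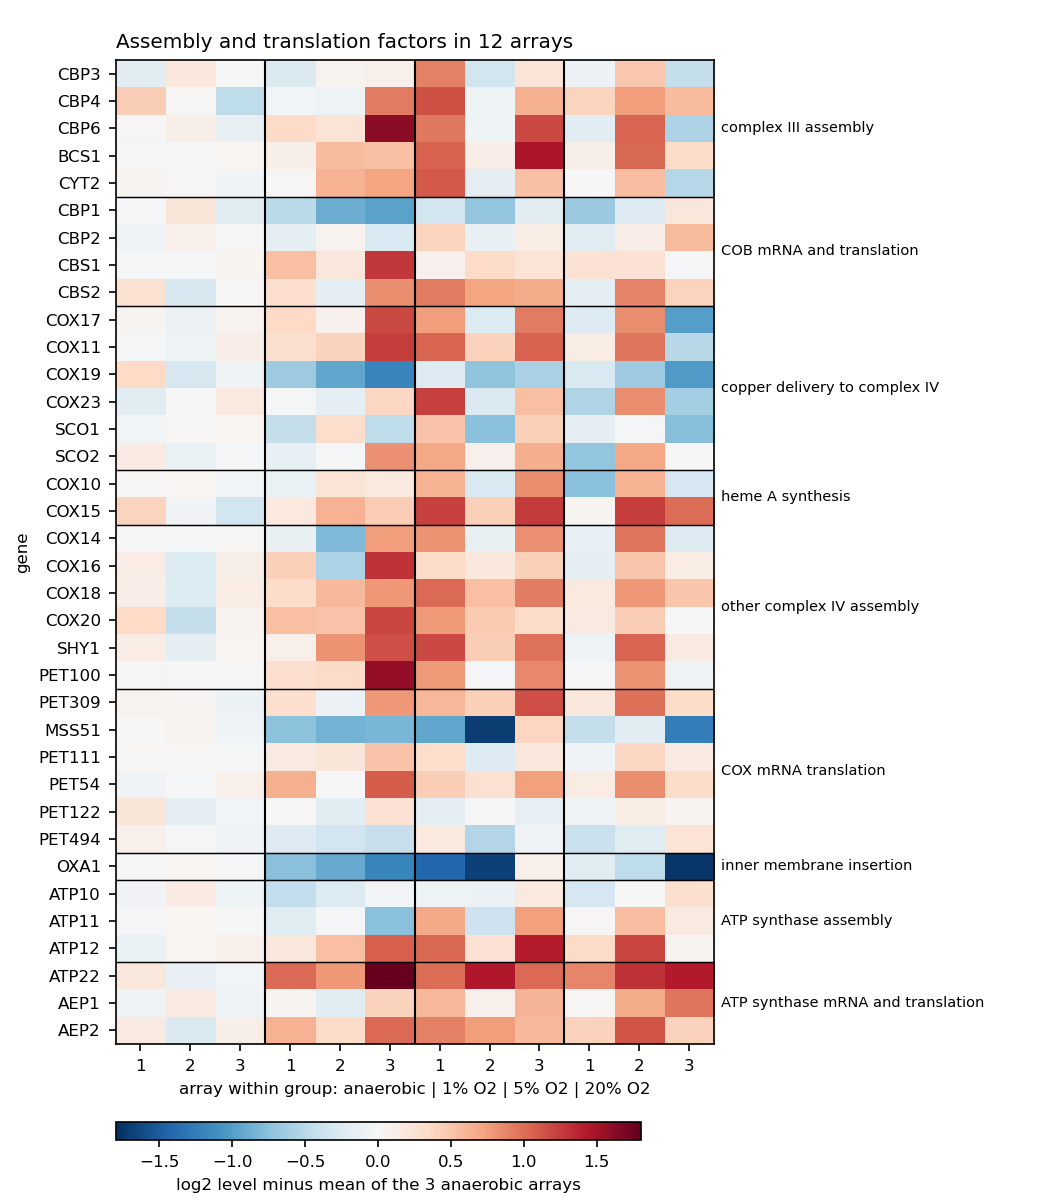
Log2 level of each of the 36 genes (rows, grouped by role) in each of the 12 arrays (columns, low to high oxygen), minus the mean of its 3 anaerobic arrays; red is above and blue below that mean. ATP22 is red in every oxygenated array, while most other rows are red in 1% oxygen array 3, 5% oxygen arrays 1 and 3 and 20% oxygen array 2, and paler or blue in the remaining oxygenated arrays.

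The factors were set against the structural subunits of their own enzyme. For complex IV, none of 20 factors rose at 20% oxygen, with a median of 0.15, against 5 of 9 subunit genes (COX4, COX5A, COX9, COX12 and COX13), with a median of 1.00. COX5A, the aerobic isoform of subunit 5, averaged 11.0 ± 0.33 at 20% oxygen and 9.16 ± 0.59 in the anaerobic arrays (SD, n = 3 each), a difference of 1.84 ± 0.33 in the fit (limma adjusted p = 0.00675). Its hypoxic partner COX5B, also among the 9 subunit genes, differed by -0.37 ± 0.24 (limma adjusted p = 0.395). At 1% and 5% oxygen COX5B differed by 0.63 and 0.05 and was not called. For complex III, none of 9 factors rose, with a median of 0.16, while COR1 rose (0.98 ± 0.27, limma adjusted p = 0.0453) among 9 subunits with a median of 0.60. For ATP synthase, ATP22 rose among 6 factors with a median of 0.54, and ATP5 (0.83 ± 0.19) and ATP7 (0.87 ± 0.23) rose among 14 subunits with a median of 0.57. These medians were described and not tested, and their order depended on the oxygen level. At 5% oxygen the factor and subunit medians were 0.48 and 0.85 for complex IV, 0.49 and 0.41 for complex III, and 0.59 and 0.64 for ATP synthase. At 1% oxygen they were 0.32 and 0.66 for complex IV, 0.32 and 0.12 for complex III, and 0.35 and 0.60 for ATP synthase. The factor median was thus the lower one at all 3 levels for complex IV and ATP synthase, and at 20% alone for complex III. Calls of subunits also differed by enzyme. At 5% oxygen 0 subunits of complex III, 5 of complex IV and 3 of ATP synthase rose (5.32% of all genes did). At 1% oxygen 0, 2 and 5 rose (5.27% of all genes). The standard errors of the factors were a little larger, with a median of 0.32 against 0.27 for the subunits. The arrays of the 20% and anaerobic groups did not overlap for 6 factors that were higher (18.3% of all genes) and 2 that were lower (15.9%), and for 17 subunits, all higher. At 5% oxygen this was so for 13 factors higher (25.5% of all genes) and 1 lower (22.2%), and for 20 subunits, all higher. At 1% oxygen it was so for 12 factors higher (19.9% of all genes) and 5 lower (24.6%), and for 11 subunits higher and 1 lower.

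The factors varied from array to array within each oxygenated group. Their median deviation from the anaerobic mean (log2) was 0.02, -0.00 and -0.01 in anaerobic arrays 1 to 3, and 0.06, 0.07 and 0.74 at 1% oxygen. It was 0.73, -0.06 and 0.62 at 5% oxygen, and -0.08, 0.68 and 0.09 at 20% oxygen. So 5 of the 9 oxygenated arrays were within 0.1 of the anaerobic mean, and 4 were above it by 0.62 to 0.74, with at least 1 array of each kind at every oxygen level. The median difference of the factors at 1% oxygen was 0.06 without array 3, and that at 20% was -0.01 without array 2. The structural subunits had medians of 0.52, 0.18 and 1.09 at 1% oxygen, 0.75, 0.52 and 0.67 at 5%, and 0.75, 0.92 and 0.41 at 20%. Of these 9 values, 7 were above the 0.43 of anaerobic array 1, the highest anaerobic value.

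This variation was shared by most members. At 1% oxygen, array 3 was the highest of its group for 25 of 36 factors (46.9% of all genes). At 5% oxygen, array 2 was the lowest for 30 of 36 (27.7% of all genes), and at 20% oxygen array 2 was the highest for 28 of 36 and the lowest for none (33.7% and 25.6% of all genes). The median SD of a factor over the 3 arrays of a group was 0.11 in the anaerobic group, 0.37 at 1% oxygen, 0.38 at 5% and 0.45 at 20%, beside 0.16, 0.35, 0.25 and 0.31 for all genes. For the structural subunits the median SD was 0.39, 0.41, 0.24 and 0.27 at 0, 1%, 5% and 20% oxygen.

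The same arrays were high for 65 mitochondrial ribosomal protein genes, whose median deviation was 0.88 in 1% oxygen array 3, 0.77 and 0.76 in 5% oxygen arrays 1 and 3, and 0.71 in 20% oxygen array 2. In the other 5 oxygenated arrays it lay between -0.38 and 0.29. Gene length was checked as a property that follows RNA quality on some arrays. Across all 5449 genes, the correlation of the deviation with log length was -0.17 to 0.13 in the anaerobic arrays, -0.27 in 1% oxygen array 3, 0.14 in 20% oxygen array 3 and -0.13 to -0.16 in the other 7 oxygenated arrays, and genes are not independent replicates. With the length dependence taken out array by array, the factor medians were 0.08, 0.12 and 0.55 at 1% oxygen, 0.68, -0.04 and 0.62 at 5%, and -0.11, 0.66 and 0.15 at 20%. The same 4 arrays were the highest.

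**Figure D4:**
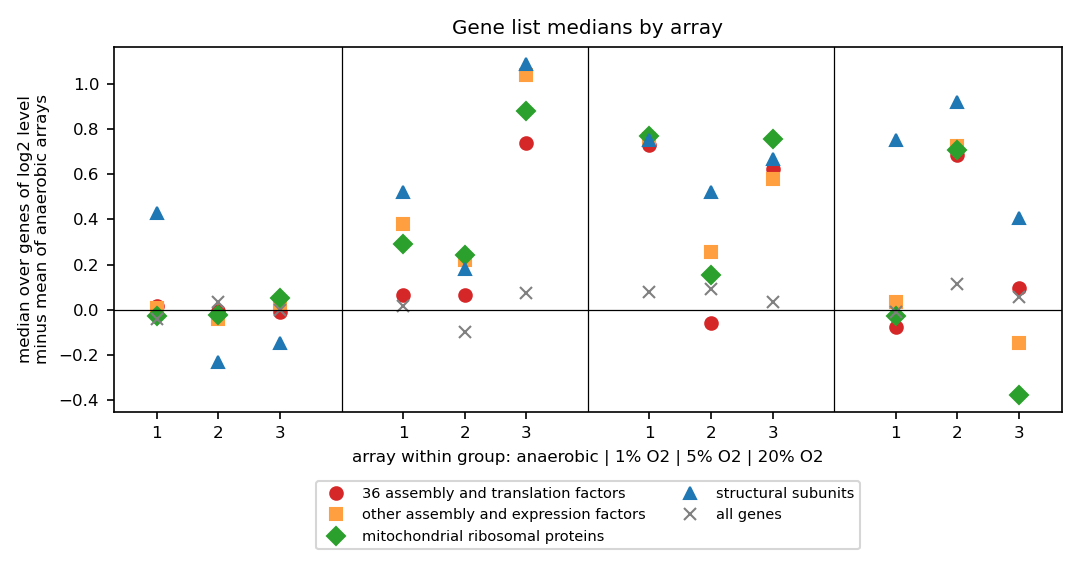
Median over the genes of each list of the log2 level minus the mean of the anaerobic arrays (vertical axis), in each array of the 4 groups (horizontal axis, low to high oxygen). The assembly and translation factors (red) lie near 0 in 5 of the 9 oxygenated arrays and between 0.62 and 0.74 in the other 4. In those 4 arrays the other assembly factors lie at 0.58 to 1.04 and the mitochondrial ribosomal proteins at 0.71 to 0.88, and in the remaining 5 at -0.15 to 0.38 and -0.38 to 0.29, while the structural subunits (blue) lie above 0 in all 9.

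Between oxygenated groups no factor was called. For 20% against 5% oxygen, limma called 0 of 36 factors and 0 of 5449 genes, and no factor had an unadjusted p under 0.05 (2.73% of all genes did). Of the 36 factors, 10 were higher and 26 lower at 20% than at 5% oxygen, with a median of -0.22, while 51.5% of all genes were higher, with a median of 0.01. All 6 copper factors and all 6 other complex IV assembly factors were among these 26, with medians of -0.54 and -0.31. Related lists shared this direction. Of the 65 mitochondrial ribosomal protein genes, 62 were lower at 20% than at 5%. So were 34 of 41 other assembly and expression factors, which are described next. For 5% against 1% oxygen, limma called 0 factors and 0 genes, and 1 factor, ATP11, had an unadjusted p under 0.05 (0.68 ± 0.30; 4.86% of all genes did). For 20% against 1% oxygen, 0.367% of all genes were called and 0 factors, and 1 factor, CBP1, had an unadjusted p under 0.05 (14.3% of all genes did). The highest of the 4 group means was at 5% oxygen for 17 factors and at 20% for 4, and for the 32 subunits it was at 5% for 4 and at 20% for 19. Among all genes it was at 5% for 20.6% and at 20% for 22.5%. Among the 41 other factors it was at 5% for 17 and at 20% for 2, so the 36 were not alone in this. These counts follow array shifts that the genes shared, so the genes are not separate evidence of a direction. The factor medians were 0.73, -0.06 and 0.62 in the 5% arrays and -0.08, 0.68 and 0.09 in the 20% arrays. Of the 65 ribosomal protein genes, 64 were lowest in 5% oxygen array 2 and 63 highest in 20% oxygen array 2, each within its group.

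A further 41 genes for assembly and mitochondrial gene expression, were listed by function beside the 36. At 1% oxygen 4 of them rose (5.27% of all genes did), at 5% oxygen 5 rose (5.32%) and 1 fell (11.0%), and at 20% oxygen limma called none. Their medians were 0.52, 0.56 and 0.14. At 20% oxygen 5 of the 41 were higher and 0 lower at an unadjusted p under 0.05, beside 693 and 667 of 5449 genes. The largest called differences at 5% oxygen were SLS1 (-1.32 ± 0.41), a link between mitochondrial transcription and translation, and NCA2 (1.14 ± 0.35), CBT1 (0.87 ± 0.21) and ATP23 (0.81 ± 0.24). NCA2 acts on the expression of subunits 6 and 8 of ATP synthase, CBT1 on the processing of cytochrome b mRNA, and ATP23 on the maturation of subunit 6. At 1% oxygen the called genes were COA1 (0.98 ± 0.29), an assembly factor of complex IV, ATP23 (0.86 ± 0.24), CBT1 (0.71 ± 0.21) and ARH1 (0.71 ± 0.19), a reductase of the mitochondrial ferredoxin. These calls had limma adjusted p-values between 0.0179 and 0.0477.

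Genes that supply copper or control respiration were counted in the same way. Of 10 copper uptake and transport genes, CTR1, the copper importer of the cell surface, was the one called, and it rose at 5% oxygen (0.96 ± 0.24, limma adjusted p = 0.0185) and at 20% (0.96 ± 0.24, adjusted p = 0.0306). The list thus had 10% called at each of these levels, beside 16.3% and 7.91% of all genes (5.32% and 3.27% higher), and no gene of that list was called at 1%, where none had an unadjusted p under 0.05. Of the 5 genes of the respiratory activators HAP1 and HAP2/3/4/5, limma called none at any oxygen level. An unadjusted p under 0.05 was found for 0 of them at 1% oxygen, 1 at 5% (lower) and 2 at 20% (1 higher and 1 lower). By that measure 837 of 5449 genes were higher and 938 lower at 5% oxygen, and 693 were higher and 667 lower at 20%. HAP4, the regulated subunit of the second activator, differed by -0.05 ± 0.42 at 20% oxygen.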

How the data were processed

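The authors deposited log2 values for 5716 probe sets on 12 arrays, made with RMA per the submitters' processing notes; its release and options are not stated there, and log2 was read from the range of the values. The platform table gave a single gene for 5498, all matched the reference gene table, and 218 were unnamed. For the 47 genes with several probe sets the one with the highest mean was taken. The 1362 genes with a mean under 5.84 were marked dim, 5 of the 36 among them.

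limma 3.58.1 under R 4.3.3 estimated the 4 group means jointly from the 12 arrays (8 residual and 4.11 prior degrees of freedom), with Benjamini-Hochberg adjustment over 5449 genes and calls at an adjusted p under 0.05. The fit was tested on simulated data with noise independent between genes and of the same spread in all groups. That test does not cover the shared array shifts and unequal spreads described above. The number of arrays limits the precision.

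The 36 genes and the lists were chosen with earlier results of these data known. The 66 mitochondrial ribosomal protein genes, of which 65 were measured, were added after the first fits. Values in every array are given for members called anywhere, for the member of each role with the largest difference at 20% oxygen, and for others chosen after their values were seen. Genes encoded in mitochondrial DNA and COX26 were not analysed here.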

Additional observations from a re-analysis of the deposited data

How the results depend on the processing

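With quantile scaling the split of all calls was 456 higher and 563 lower at 5% oxygen (290 and 599 as reported) and 475 and 486 at 1% (287 and 608). Under it 4 members were called at 5% (ATP22, COX18, AEP2 and PET309), and at 1% ATP22 and CBS1, both higher. With the gene length trend removed the same 4 members were called at 5%, and 13 subunits at 20%. Fitting only the groups compared gave 1602 genes, 9 members (the same 4 with ATP12, CBS2, COX11, COX15 and SHY1) and 16 subunits at 5%, and 447 genes and 1 subunit at 1%, where ATP22 (adjusted p = 0.0521) and COX19 (0.0553) were not called. Without 1% oxygen array 3 and anaerobic array 1 together, 16 subunits were called at 20%, 4 members and 16 subunits at 5%, 155 genes, 0 members and 2 subunits at 1%, and 44 genes for 20% against 1%. Same-numbered arrays of different groups did not deviate together (correlations of -0.317 to 0.358, 2 of 18 pairs above 0.1). In 2 of the 18 pairs the same-numbered array was the best match in the other group. The numbers were thus not taken as pairs. With the replicate number as a block, 2, 5 and 4 subunits were called at 1%, 5% and 20%, 523 genes at 1%, and 0 members by the F test, and ATP22, COX18 and COX19 kept their pairwise calls.

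Leaving out each array in turn gave 153 to 758 genes, 0 to 2 members and 1 to 14 subunits at 20%, 400 to 1303 genes, 0 to 3 members and 1 to 15 subunits at 5%, and 36 to 985 genes, 0 to 4 members and 0 to 11 subunits at 1%. The lowest gene counts against the anaerobic group were without anaerobic array 2, and the highest without 1% oxygen array 3 (20% and 5%) or 1% oxygen array 2 (1%). The member median ranged from -0.01 to 0.29 at 20%, 0.33 to 0.72 at 5% and 0.06 to 0.38 at 1%. The F test called 0 to 1 members, and counts of genes were 0 to 6 for 5% against 1%, 0 for 20% against 5% and 5 to 28 for 20% against 1%, with 0 members in each. The causes were not tested. Median scaling, the mean of probe sets and a trended or robust prior changed none of these counts by over 1.5 times. Leaving out dim genes did not either, but it removed COX19 and called CBP1 lower at 1% (adjusted p = 0.0467).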

Other observations

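SLS1, MSS51 and OXA1, set side by side after their values were seen, shared the place of their arrays at 5% oxygen. SLS1 stood at 3.28, 3.88 and 5.50 at 5% oxygen, against 5.40, 5.68 and 5.55 in the anaerobic arrays. Array 3 at 5% oxygen was thus in the anaerobic range for SLS1, and above it for MSS51 (8.96) and OXA1 (7.55), while arrays 1 and 2 were below it for all 3 genes. SLS1 is dim, and the part of that array in the pattern was not tested.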
